A study of Mus musculus with 3 samples.

Results

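Genes of ribosome biogenesis and of the nucleolus were followed by newly made RNA in mouse pancreatic cancer cells. They were taken as a list of 46 gene names, matched by symbol to the gene models of the series, and 45 of the names were found among 22658 models. Noc2l was not analysed here. All 45 were among the 7915 measured genes, meaning genes with a mean of at least 0.5 RPKM over the libraries and a model of at least 300 bp. RPKM is a read density, the reads per kilobase of gene model scaled to the size of the library.

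NB490 is a mouse pancreatic cancer cell line, and in every library its cells held a short hairpin RNA (shRNA) construct that doxycycline switches on and that targets PDX1, a transcription factor of pancreas development. Bru-seq was used, in which cells take up bromouridine, here 2 mM for 30 min, and reads from the captured RNA report transcription during that time. The 3 conditions were uninduced cells, cells at 48 h of doxycycline, and cells that had grown out during more than 3 weeks of doxycycline. All came from 1 line. Doxycycline-treated cells lacking the shRNA were not analysed here, so effects of the shRNA and of doxycycline itself cannot be told apart. No uninduced library was labelled as kept for more than 3 weeks. Time in culture and growing out therefore cannot be told apart from those effects in the grown-out library. Each condition was sequenced as 1 library without a replicate, so no p-value is given, and each difference below is one between libraries. Both comparisons with the uninduced library share that library.

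Ribosomes are built in the nucleolus, where RNA polymerase I transcribes the precursor of most ribosomal RNA. Small nucleolar ribonucleoproteins (snoRNPs) modify that precursor, and large assemblies fold, cut and package it into the 40S and 60S subunits. The demand for new ribosomes is high in growing cells, and the transcription factor MYC, which binds the E-box sequence CACGTG as a dimer with MAX, is a known activator of many of these genes.

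Promoter sequences are shown as a description, and shared regulation of the members was not tested. The 45 members lay on 19 chromosomes, and the nearest pair, Npm3 and Nolc1, lay 326300 bp apart. A RefSeq table of build GRCm38.p6 held promoter windows of 40 of the 46 names, Noc2l included, each with 250 bases before and 50 after the annotated start. The 250 bases before the start of 3 members with high or firmly different RNA follow, 5′ to 3′ on the gene's strand, with CACGTG in capitals. That motif reads the same on both strands. Rrn3 and Nop2 held it, and Ncl did not. By interval bound in grown-out against uninduced cells, Ncl, Nop2 and Rrn3 ranked 2, 3 and 5 among the members. Bop1, ranked 1, had no promoter in the RefSeq table. Wdr12, ranked 4, had promoters without the motif and is not printed, so these 3 are not a fair sample for the motif.
Rrn3, chr16:13780449-13780698, plus strand: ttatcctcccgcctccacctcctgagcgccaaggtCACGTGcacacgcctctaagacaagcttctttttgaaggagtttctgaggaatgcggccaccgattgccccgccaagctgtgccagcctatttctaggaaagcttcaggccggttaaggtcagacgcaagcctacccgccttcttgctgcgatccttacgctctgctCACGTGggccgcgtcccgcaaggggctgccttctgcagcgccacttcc
Nop2, chr6:125131633-125131882, plus strand: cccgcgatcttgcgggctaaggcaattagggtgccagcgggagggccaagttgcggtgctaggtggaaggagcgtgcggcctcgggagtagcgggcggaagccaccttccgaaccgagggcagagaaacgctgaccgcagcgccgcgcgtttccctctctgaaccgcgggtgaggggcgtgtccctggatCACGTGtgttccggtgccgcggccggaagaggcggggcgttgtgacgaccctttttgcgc
Ncl, chr1:86359456-86359705, minus strand: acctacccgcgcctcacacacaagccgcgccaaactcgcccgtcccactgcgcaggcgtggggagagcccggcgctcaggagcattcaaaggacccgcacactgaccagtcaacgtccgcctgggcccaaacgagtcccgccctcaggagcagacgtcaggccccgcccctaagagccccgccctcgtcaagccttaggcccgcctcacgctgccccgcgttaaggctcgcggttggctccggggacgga

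CACGTG stood in these 250 bases for 3 of 40 members, or 7.50%, against 6.86% of all 27025 genes of the table. Over all 300 bases, a window chosen after the data were seen, it stood in 8 of 40 members, or 20.0%, against 8.09% of all genes. Besides Rrn3 and Nop2, the members that held it are shown with 10 bases on either side where the window reached that far, and the coordinates are those of the 300-base window.
Imp4, inside chr1:34439579-34439878, plus strand: ggtcttagacCACGTGacatcccaaa
Wdr43, inside chr17:71615965-71616264, plus strand: cccgggcgaaCACGTGgctgccgcgg
Pes1, inside chr11:3963725-3964024, plus strand: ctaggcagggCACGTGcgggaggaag
Mybbp1a, inside chr11:72441077-72441376, plus strand: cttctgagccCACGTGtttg
Pno1, inside chr11:17211540-17211839, minus strand: tacaaccacgCACGTGttcctct
Utp20, inside chr10:88826765-88827064, minus strand: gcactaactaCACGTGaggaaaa

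In Imp4 the motif began at position -121 from the start, and in the other 5 it began after the start. Grown-out against uninduced, 5 of the 8 members with the motif in the 300 bases were higher beyond counting error, with a median log2 ratio of 0.18. Of the 31 measured members whose window lacked it, 24 were higher, with a median of 0.29. In 48 h against uninduced cells 5 of the 8 were higher, at a median of 0.15, and 11 of the 31, at a median of 0.09. Of all measured genes 33.6% were higher in grown-out and 30.1% in 48 h than in uninduced cells. The difference between members with and without the motif was not tested. A match is a description of these letters and was not tested for binding.

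The libraries held 51006775 reads from uninduced cells, 48418864 after 48 h and 41632296 from grown-out cells, so the grown-out library was the shallowest, and gene models took 78.1% to 79.4% of them. A member had a median of 1204, 1326 and 1190 reads in that order. In uninduced cells the members' reads spanned 37.3 for Npm3 to 24407 for Npm1. The labelled cell type was checked against marker genes. Of 8 duct epithelial markers 6 were measured, and their summed level was 145 RPKM in uninduced cells, 78.9 after 48 h and 75.1 in grown-out cells. Summed acinar, endocrine, fibroblast and endothelial markers were each at most 0.229 RPKM in every library, with Cpa1, Pnlip, Ins1, Ins2, Gcg, Sst, Chga and Lum at 0. Immune markers summed to 2.42, 1.37 and 1.37 RPKM, nearly all from Cd68 and Cd14. Spp1 alone made up 32.3 RPKM of the duct sum in grown-out cells and 98.6 RPKM in uninduced cells, and the other duct markers summed to 46.3, 38.9 and 42.9 RPKM in uninduced, 48 h and grown-out cells. The duct and immune sums were lower in both doxycycline libraries, and their part in the results below was not tested. In such bulk samples fewer cells of a type and less RNA per cell cannot be told apart.

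The targeted gene, Pdx1, had 1.59 RPKM in uninduced cells, 1.05 after 48 h and 1.41 in grown-out cells. It was 1.51-fold lower after 48 h (95% interval 1.28 to 1.77) and 1.12-fold lower in grown-out cells, where the interval contained 1 (0.961 to 1.30). Because the hairpin targets mature mRNA, nascent reads do not measure the knockdown.

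The first comparison, of cells grown out in doxycycline with uninduced cells, showed higher nascent RNA for most of the list. Of the 45 members 35, or 77.8%, were higher beyond counting error, meaning that the exact binomial 95% interval of the ratio excluded 1, and 0 were lower. The background was wide, since 33.6% of all measured genes were higher by that rule and 29.5% lower. At a size of at least 1.2-fold, a rule added after the data were seen, 28 members were higher, or 62.2%, and 0 lower, where 11.4% of all measured genes were higher and 12.7% lower. The differences were small: the median log2 ratio of the members was 0.30, against 0.01 for all measured genes, and 0 members were past 2-fold in either direction, where 0.872% of all genes were. Intervals cover counting error only, and reads were not counted by molecular identifiers.

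After 48 h of doxycycline the differences from uninduced cells were smaller in size. Against uninduced cells 17 members, or 37.8%, were higher beyond counting error and 2 lower, where 30.1% of all measured genes were higher and 30.0% lower. At least 1.2-fold, 7 were higher, or 15.6%, and 0 lower, against 6.47% and 13.8% of all genes, and 0 were past 2-fold, against 0.745%. The median log2 ratio was 0.09, against 0.00 for all genes. By the interval alone the share of higher members was near the background, and by the 1.2-fold rule it was above it, while the share of lower members was below it by both. The uninduced library was the lowest of the 3 for 34 members, or 75.6%, against 30.4% of all measured genes.

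Grown-out against 48 h cells, 29 members were higher beyond counting error, or 64.4%, and 2 lower, where 35.6% of all measured genes were higher and 32.0% lower. At least 1.2-fold, 19 were higher and 1 lower, against 17.2% and 13.2% of all genes. None of the 45 was past 2-fold (0 members), against 1.02% of genes, and the median log2 ratio was 0.21, against 0.01 for all genes. The grown-out library had the highest level for 37 of 45 members, or 82.2%, against 38.1% of all measured genes. Levels stood in the order uninduced, 48 h, grown-out for 27 members, or 60%, against 16.8% of all genes. The 48 h library was highest for 7 members, namely Nhp2, Nop10, Polr1c, Imp4, Noc4l, Ebna1bp2 and Mybbp1a, and the uninduced library for Imp3.

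**Figure D1:**
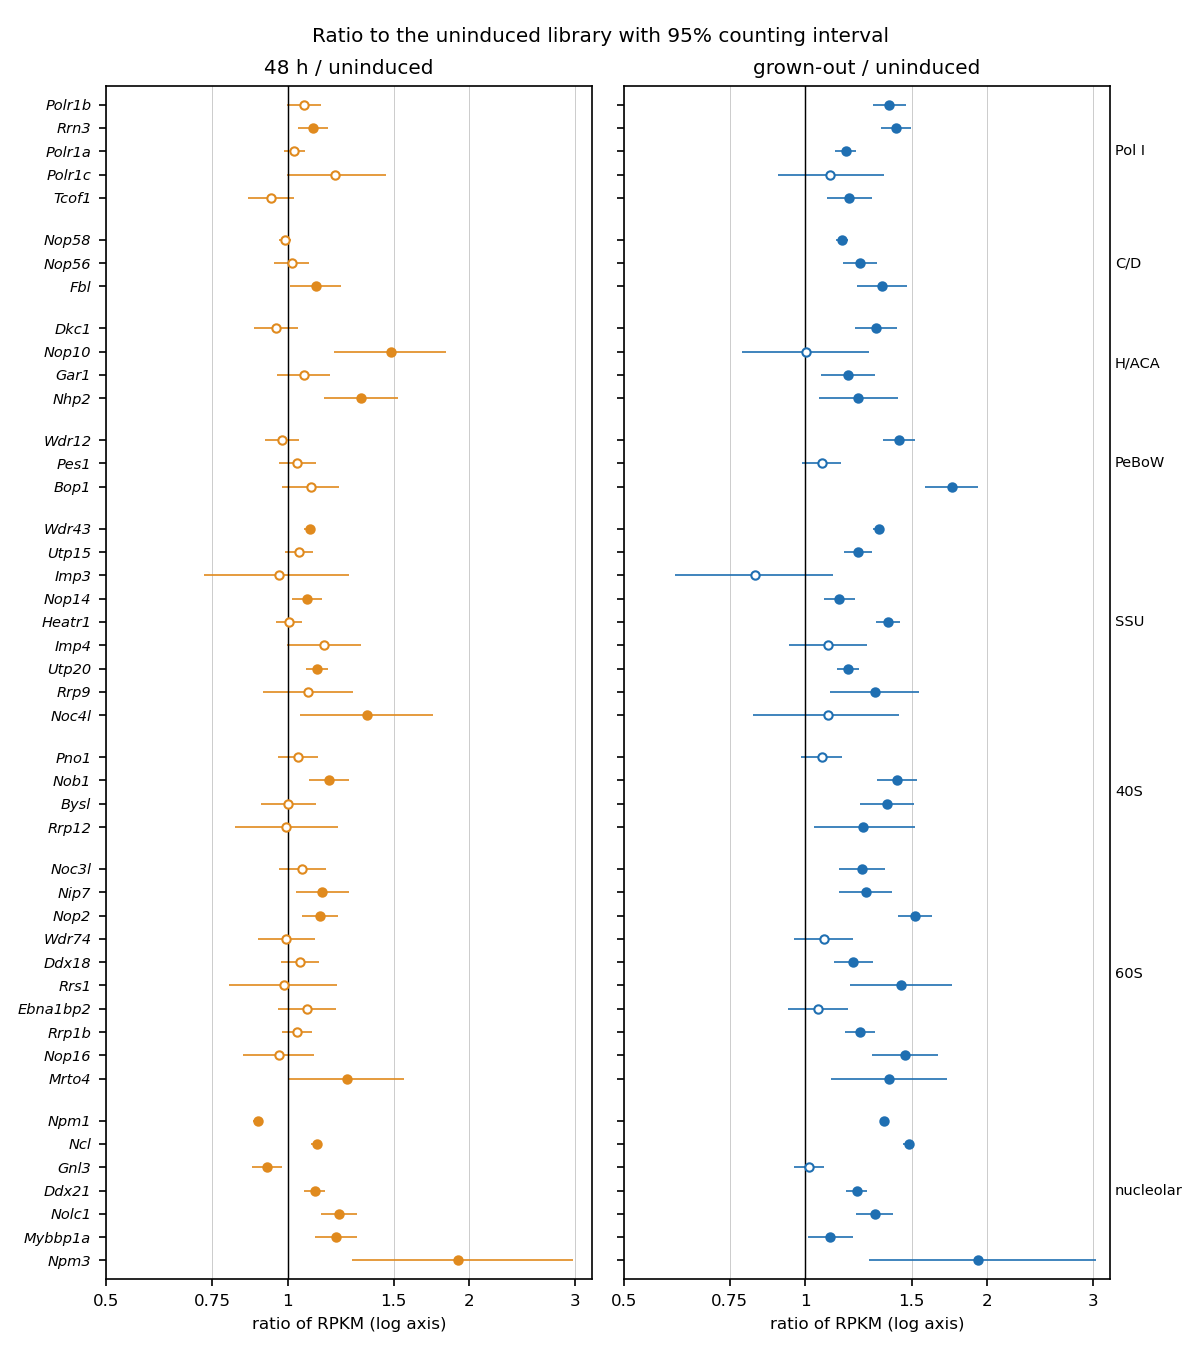
Fold of nascent RNA of each of the 45 members on a log axis, with exact binomial 95% intervals (counting error only), for 48 h against uninduced cells and for grown-out against uninduced cells; filled points have an interval that excludes 1. In the grown-out panel 35 points are filled and all lie to the right of 1, whereas in the 48 h panel 17 filled points lie to the right and 2, Npm1 and Gnl3, to the left.

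Summed over the members, their reads were 0.328% of the library in grown-out cells (95% exact binomial interval 0.326% to 0.329%) and 0.253% in uninduced cells (0.252% to 0.255%), a 1.29-fold difference (1.28 to 1.30). After 48 h the sum was 0.262% (0.260% to 0.263%), 1.03-fold the uninduced share (1.02 to 1.04). Npm1 and Ncl gave a large part of that sum. Without them the share was 0.213% in grown-out and 0.172% in uninduced cells, 1.24-fold apart (1.23 to 1.25), and 0.181% after 48 h, 1.05-fold the uninduced share (1.04 to 1.06).

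**Figure D2:**
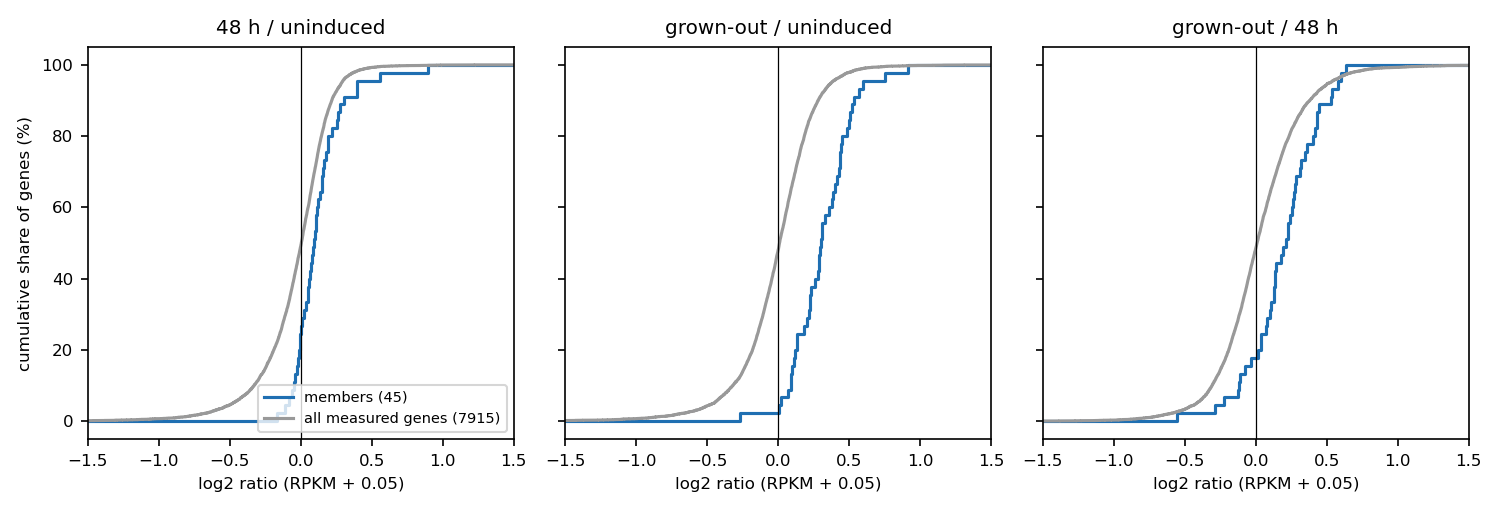
Cumulative share of genes against the log2 ratio of RPKM plus 0.05 for the 45 members and all 7915 measured genes, in 3 panels, 1 for each pair of libraries, with 20 genes for grown-out against uninduced, 12 for 48 h against uninduced and 16 for grown-out against 48 h beyond the axis. The members' curve lies to the right in the panels with grown-out cells, with medians of 0.30 and 0.21, and nearer to that of all genes in the panel of 48 h against uninduced cells, with a median of 0.09.

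The role groups below are small, and their counts stand beside the same shares over all measured genes, 33.6% higher in grown-out and 30.1% higher in 48 h than in uninduced cells. Several of the 48 h counts lie near or below that share.

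The nucleolar scaffold, chaperone and regulatory proteins held the most highly transcribed members. Of 7, 6 were higher in grown-out than in uninduced cells beyond counting error, with a median log2 ratio of 0.38. Npm1 (nucleophosmin, a histone and ribosome chaperone of the nucleolus) had the highest level of all members in the mean over the libraries, at percentile 99.8 of the measured genes. Its model lies at chr11:33052498-33063206 on the minus strand in the files' coordinates, whose build is not given in the sources used here. Npm1 had 44.7 RPKM in uninduced cells (95% Poisson interval 44.1 to 45.2), 39.8 after 48 h (39.3 to 40.4) and 60.4 RPKM once grown out (59.7 to 61.2). The 48 h library was thus lowest and the grown-out library highest, with no overlap of the counting intervals. Npm1 was 1.12-fold lower after 48 h than in uninduced cells (1.10 to 1.14), 1.35-fold higher in grown-out than in uninduced cells (1.33 to 1.38) and 1.52-fold higher in grown-out than in 48 h cells (1.49 to 1.54), first by size of the interval bound among the members.

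Ncl encodes nucleolin, an abundant RNA-binding protein of the nucleolus, and its model spans chr1:88241294-88256030 on the minus strand. It had 23.0 RPKM in uninduced cells, 25.8 after 48 h and 34.1 in grown-out cells, from 17090, 18148 and 20686 reads. The level was higher in each doxycycline library. Ncl was 1.48-fold higher in grown-out (1.45 to 1.51) and 1.12-fold higher in 48 h cells (1.10 to 1.14) than in uninduced cells. Nolc1, a phosphoprotein that shuttles between the nucleolus and Cajal bodies and binds snoRNPs, had 3.13, 3.81 and 4.08 RPKM in uninduced, 48 h and grown-out cells. Nolc1 differed mainly between uninduced cells and the others, by 1.30-fold in grown-out (1.21 to 1.40) and 1.22-fold in 48 h cells (1.14 to 1.30).

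Npm3, a relative of Npm1, had the fewest reads of the list, 37.3 in uninduced, 67.7 in 48 h and 58.9 in grown-out cells. Its levels were 0.850, 1.63 and 1.64 RPKM, which made it 1.94-fold higher in grown-out (1.27 to 3.03) and 1.91-fold higher in 48 h cells (1.28 to 2.97) than in uninduced cells. These were the widest intervals among the members that were higher, and both doxycycline libraries stood at about the same level. Mybbp1a, a nucleolar protein known for binding MYB and for a role in ribosomal RNA transcription, had 2.24, 2.69 and 2.46 RPKM. It was highest after 48 h, 1.20-fold above uninduced cells (1.11 to 1.30), and grown-out cells were 1.09-fold lower than 48 h cells (1.01 to 1.19). Gnl3 (nucleostemin, a nucleolar GTP-binding protein) had 8.03, 7.42 and 8.14 RPKM. Gnl3 was 1.08-fold lower after 48 h (1.02 to 1.14) and in grown-out cells did not differ from uninduced cells beyond counting error, at 1.01-fold (0.958 to 1.07). Ddx21, a nucleolar RNA helicase, was 1.22-fold higher in grown-out than in uninduced cells (1.17 to 1.27).

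**Figure D3:**
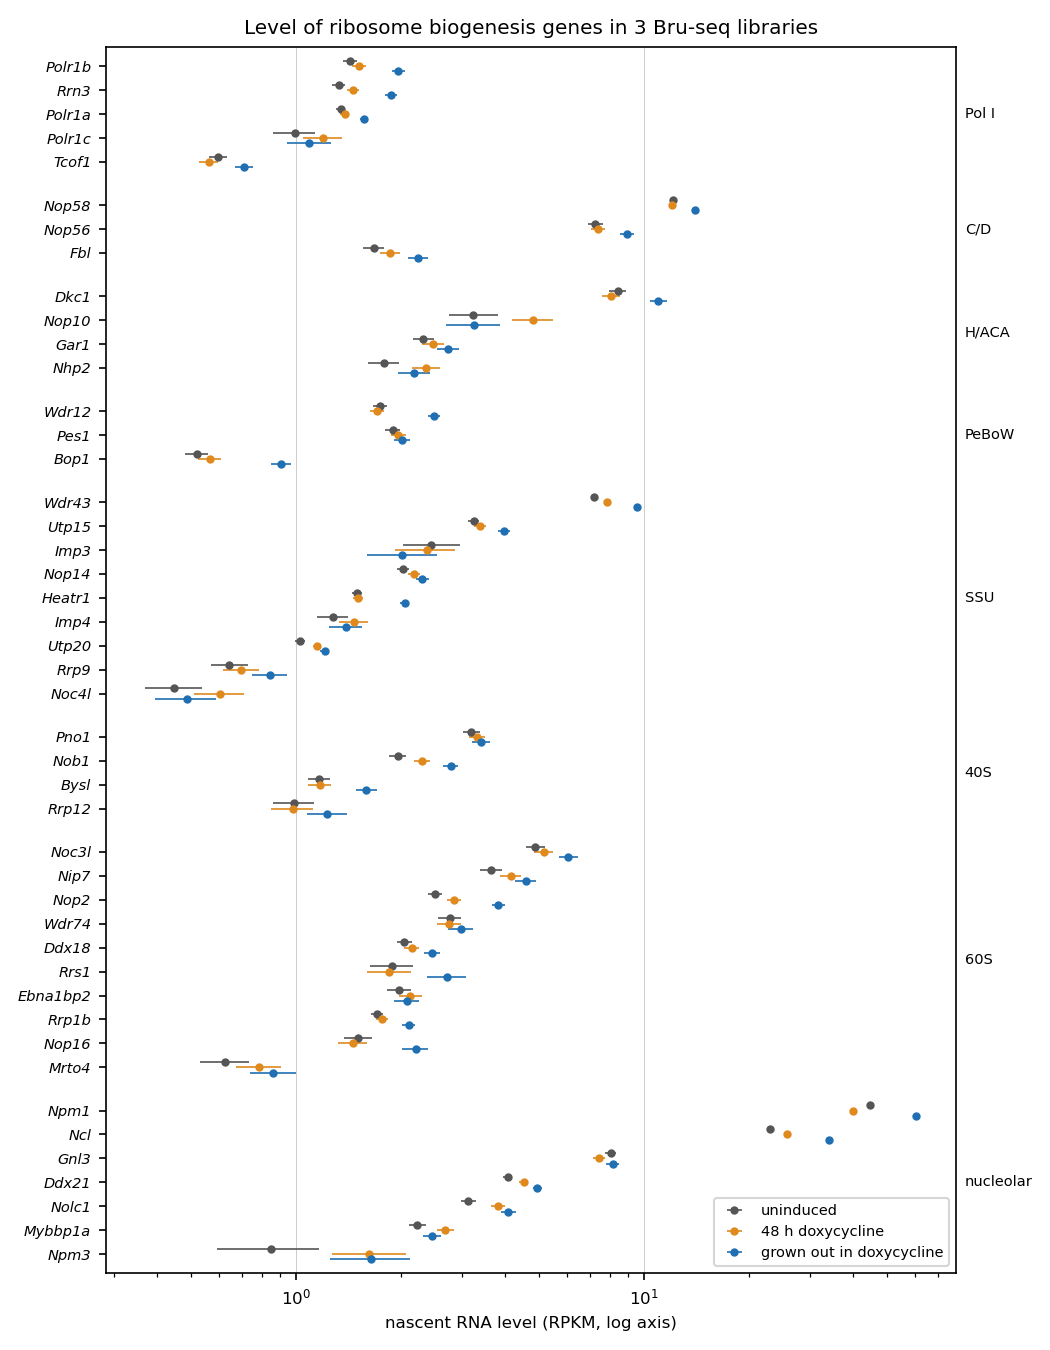
Nascent RNA of the 45 members in RPKM on a log axis, 1 point for each library with its exact Poisson 95% interval, grouped by role. Npm1 and Ncl lie far to the right of the other members, and for 37 members the grown-out point is the highest of the 3.

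Genes of RNA polymerase I and its factors were higher in grown-out than in uninduced cells for 4 of 5, with a median log2 ratio of 0.23, and for 1 of 5 after 48 h. Rrn3 (also named TIF-IA, the factor that makes RNA polymerase I competent to initiate) had 1.33, 1.46 and 1.88 RPKM in uninduced, 48 h and grown-out cells. Levels of Rrn3, whose promoter with 2 CACGTG motifs is printed above, thus stood in that order. Rrn3 was 1.41-fold higher in grown-out (1.34 to 1.50) and 1.10-fold higher in 48 h cells (1.04 to 1.17). Polr1b, the second largest subunit of the polymerase, had 1.43, 1.52 and 1.97 RPKM. Polr1b was 1.38-fold higher in grown-out cells (1.29 to 1.47), and its 48 h value was within counting error of the uninduced one, at 1.07-fold (0.999 to 1.14). The largest subunit, Polr1a, was 1.17-fold higher in grown-out cells (1.12 to 1.21), and Tcof1, encoding the treacle protein that helps recruit the polymerase to ribosomal DNA, 1.18-fold (1.09 to 1.29). Polr1c, a subunit shared with RNA polymerase III, did not differ beyond counting error, at 1.10-fold (0.900 to 1.35).

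The box C/D snoRNPs guide 2′-O-methylation of ribosomal RNA, and all 3 core protein genes on the list were higher in grown-out than in uninduced cells, with a median log2 ratio of 0.30. Fbl (fibrillarin, the methyltransferase) had 1.68 RPKM in uninduced, 1.87 in 48 h and 2.25 in grown-out cells. Fbl was 1.34-fold higher in grown-out (1.22 to 1.47) and 1.11-fold higher in 48 h cells (1.01 to 1.23). Nop56 and Nop58, which hold the C/D particle together, were 1.23-fold (1.15 to 1.32) and 1.15-fold (1.13 to 1.18) higher in grown-out cells. After 48 h neither differed from uninduced cells beyond counting error, and Nop58 was at 0.991-fold (0.970 to 1.01).

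The box H/ACA snoRNPs guide pseudouridylation, and their 4 core genes did not share an order of libraries. Dkc1 (dyskerin, the pseudouridine synthase) had 8.42, 8.06 and 11.0 RPKM in uninduced, 48 h and grown-out cells. It was 1.31-fold higher in grown-out than in uninduced cells (1.21 to 1.42) and 1.37-fold higher than in 48 h cells (1.26 to 1.48), so the grown-out library alone stood apart. Nhp2 had 1.79, 2.37 and 2.19 RPKM and was highest after 48 h. Nhp2 was 1.22-fold higher in grown-out (1.06 to 1.42) and 1.32-fold higher in 48 h cells (1.15 to 1.52) than in uninduced cells. Nop10, the smallest of these proteins, had 3.24, 4.80 and 3.25 RPKM from only 154, 216 and 126 reads. For Nop10 the 48 h library stood above the others, 1.48-fold over uninduced cells (1.20 to 1.83), and grown-out cells were 1.48-fold lower than 48 h cells (1.18 to 1.85). Gar1 was 1.18-fold higher in grown-out than in uninduced cells (1.06 to 1.30).

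The PeBoW complex, made of Pes1, Bop1 and Wdr12, is needed to process the precursor of the large subunit's RNA, and its 3 genes behaved unequally. Bop1 (chr15:76283426-76307699, minus strand) had 0.519 RPKM in uninduced cells (0.480 to 0.561), 0.567 after 48 h (0.524 to 0.611) and 0.907 RPKM once grown out (0.850 to 0.968), from 643, 666 and 917 reads. The interval of the grown-out library lay above both others, which overlapped. Bop1 was 1.75-fold higher in grown-out than in uninduced cells (1.58 to 1.94), the member farthest from no change by its interval bound, and 1.60-fold higher than in 48 h cells (1.45 to 1.77). Wdr12 had 1.75, 1.71 and 2.50 RPKM and was 1.43-fold higher in grown-out than in uninduced cells (1.34 to 1.52). As for Bop1, its 48 h value was within counting error of the uninduced one, at 0.981-fold (0.919 to 1.05). Pes1 had 1.90, 1.97 and 2.02 RPKM and did not differ beyond counting error in grown-out cells, at 1.06-fold (0.988 to 1.14). That interval lay below those of Bop1 and Wdr12.

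The small subunit processome is the large particle that folds and cuts the 18S part of the precursor. Of its 9 genes on the list 6 were higher in grown-out than in uninduced cells, and 4 after 48 h. Heatr1, a large scaffold protein, had 1.50, 1.51 and 2.05 RPKM in uninduced, 48 h and grown-out cells and was 1.37-fold higher in grown-out than in uninduced cells (1.31 to 1.44). Wdr43 had 7.21, 7.84 and 9.54 RPKM and was 1.32-fold higher in grown-out (1.29 to 1.35) and 1.09-fold higher in 48 h cells (1.06 to 1.11). Heatr1 thus stood apart only in grown-out cells, and Wdr43 in both. Utp15, Utp20, Nop14 and the U3 snoRNP protein gene Rrp9 were higher in grown-out cells by 1.14-fold to 1.30-fold. Imp3 and Imp4, partners in the U3 particle, and Noc4l did not differ beyond counting error in grown-out against uninduced cells, while Noc4l was 1.35-fold higher in 48 h cells (1.05 to 1.74). Imp3 had 0.825-fold the uninduced level in grown-out cells (0.608 to 1.11), from 76 against 113 reads.

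Genes of late 40S maturation were higher in grown-out than in uninduced cells for 3 of 4. Nob1, the endonuclease that makes the final cut of 18S RNA, had 1.96, 2.30 and 2.79 RPKM in uninduced, 48 h and grown-out cells. Nob1 stood higher in each doxycycline library, 1.42-fold in grown-out (1.32 to 1.53) and 1.17-fold in 48 h cells (1.08 to 1.26). Bysl (bystin) had 1.17, 1.17 and 1.60 RPKM and was 1.37-fold higher in grown-out than in uninduced cells (1.23 to 1.51), with 48 h cells at 1.00-fold. Rrp12, an export factor in yeast, was 1.25-fold higher in grown-out cells (1.03 to 1.52). Pno1, the partner of Nob1, did not differ beyond counting error, at 1.07-fold (0.985 to 1.15).

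Assembly factors of the 60S precursor were the largest group, with 8 of 10 higher in grown-out than in uninduced cells and 3 of 10 after 48 h. Nop2, a 28S ribosomal RNA methyltransferase (chr6:125081901-125094771, plus strand, in the files' coordinates), had 2.51, 2.85 and 3.82 RPKM in uninduced, 48 h and grown-out cells. Nop2, whose promoter is printed above, was 1.52-fold higher in grown-out (1.42 to 1.62) and 1.13-fold higher in 48 h cells (1.06 to 1.21). Nop16 had 1.51, 1.46 and 2.21 RPKM and was 1.46-fold higher in grown-out than in uninduced cells (1.29 to 1.66). For Nop16 only the grown-out library stood apart, 1.51-fold over 48 h cells (1.33 to 1.72). Rrs1, which brings the 5S particle to the precursor in yeast, was 1.44-fold higher in grown-out cells (1.19 to 1.75). Mrto4, a relative of the stalk protein P0, Nip7, Noc3l, Rrp1b and the helicase gene Ddx18 were 1.20-fold to 1.38-fold higher. Ebna1bp2 and Wdr74 did not differ from uninduced cells beyond counting error, at 1.05-fold (0.936 to 1.18) and 1.07-fold (0.960 to 1.20).

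Of the 10 members that did not differ beyond counting error in grown-out cells, 9 had a gene model under 10 kb, the exception being Pes1. Split at a deposited length of 10 kb, a limit chosen after the data were seen, 21 of 22 longer members were higher in grown-out than in uninduced cells. Their median log2 ratio was 0.35. Of the shorter members 14 of 23 were higher, with a median of 0.30. Noc3l, Rrp12 and Dkc1 were higher and counted as shorter by deposited length, though their spans were 31110, 33303 and 13923 bp. Among all measured genes 39.4% of the longer and 18.6% of the shorter were higher. Across the 45 members, which share the libraries and their depth, the Spearman correlation of the log2 ratio with length was 0.14, against 0.06 across all genes. With the mean RPKM it was -0.07, against 0.09 across all genes. For grown-out against 48 h cells the correlation with length across members was 0.33, against 0.00 across all genes.

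**Figure D4:**
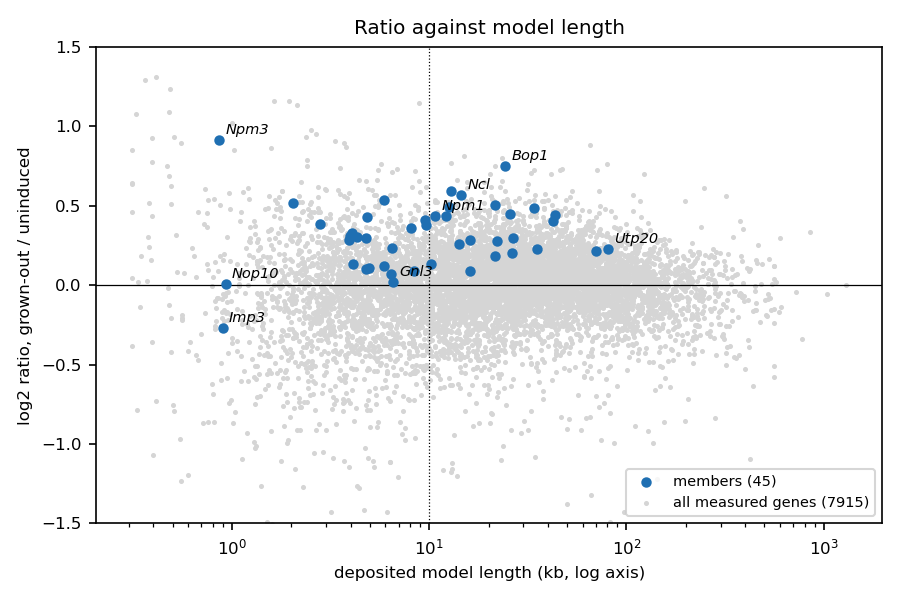
Log2 ratio of grown-out to uninduced cells against gene model length in kb on a log axis, with blue points for the 45 members, grey points for all 7915 measured genes (20 of them lie beyond the vertical axis) and a dotted line at 10 kb. Members on both sides of the line lie mostly above 0, with medians of 0.35 for the longer and 0.30 for the shorter.

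Some members overlap other models, which bears on how their reads were counted. Nop56, Nop58, Ncl, Gnl3 and Wdr43 each host 2 snoRNA models on their own strand, and their deposited lengths leave out exactly those bases, 184 bp for Ncl. The 10 snoRNA models held 347 reads in grown-out and 350 in uninduced cells in all. The libraries held 41632296 and 51006775 reads in that order, so the summed snoRNA reads were a larger share of the grown-out library. No interval is given for that sum. Among these models only Snora75, inside Ncl, was higher in grown-out than in uninduced cells beyond counting error, and the others did not differ by that rule. Noc3l, Rrp12, Npm3 and Dkc1 lie on the same strand as a left-out model spanning over 3 Mb, and their deposited lengths were 12.8%, 13.0%, 47.0% and 20.1% of their spans. On the other strand 7 members overlap a neighbour. The tendon gene Scx lies wholly inside Bop1 there, with 0.189 RPKM in grown-out and 0.308 RPKM in uninduced cells, where Bop1 had 0.907 and 0.519 RPKM.

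The rest of the pathway was followed with 113 further names, of which 112 were found and 101 measured. Taf1a was not analysed here. Grown-out against uninduced, 64 of the 101 were higher beyond counting error and 9 lower. These were 63.4% and 8.91%, against 33.6% and 29.5% of all measured genes. Their median log2 ratio was 0.16, and 30, or 29.7%, were at least 1.2-fold higher and 0 lower, against 11.4% and 12.7% of all genes. After 48 h 42, or 41.6%, were higher and 5, or 4.95%, lower than in uninduced cells, against 30.1% and 30.0% of all genes, with a median of 0.09. Among 8 measured RNA polymerase I genes, 4 were higher and 2 lower in grown-out cells. Ubtf, the upstream binding factor of ribosomal DNA, was 1.30-fold higher (1.08 to 1.56) and Cd3eap, a polymerase subunit, 1.31-fold higher (1.04 to 1.64). The deposited length of Ubtf was 33.1% of its span. Ttf1, the polymerase I termination factor, was 1.13-fold lower (1.03 to 1.24), at 0.722 RPKM in grown-out and 0.817 in uninduced cells.

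Counts of the next lists stand against the same 33.6% of all measured genes higher and 29.5% lower. Of 34 further small subunit genes 19 were higher and 2 lower. Wdr46 was 1.53-fold (1.34 to 1.76), the RNA acetyltransferase gene Nat10 1.47-fold (1.39 to 1.56) and Rcl1 1.39-fold (1.34 to 1.44) higher in grown-out than in uninduced cells. Of 38 further 60S genes 28 were higher and 3 lower, led by Gtpbp4, a GTPase of the 60S precursor, at 1.38-fold (1.33 to 1.43). Nol8 and Pelp1 were 1.32-fold (1.23 to 1.43) and 1.31-fold (1.23 to 1.40) higher. The RNA exosome, which trims the precursor, had 7 of 13 genes higher and 2 lower. Exosc6 was at 1.54-fold (1.08 to 2.22), from only 72.9 reads in grown-out against 58.1 in uninduced cells. The helicase gene Skiv2l2 was at 1.23-fold (1.19 to 1.27) and Exosc5 at 1.20-fold (1.03 to 1.40). Of 8 snoRNP assembly genes 6 were higher and 0 lower, among them Naf1, an assembly factor of H/ACA particles, at 1.27-fold (1.23 to 1.32). The ATPase gene Ruvbl2 and Znhit6 were 1.25-fold (1.10 to 1.42) and 1.20-fold (1.12 to 1.28) higher.

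The proteins of the ribosome itself did not show the members' pattern in these counts. In grown-out against uninduced cells 22 of 77 cytosolic ribosomal protein genes were higher and 24 lower, at a median log2 ratio of -0.02, and 3 were at least 1.2-fold higher and 3 lower. Of 72 mitochondrial ribosomal protein genes 12 were higher and 14 lower, with a median of -0.02. By at least 1.2-fold 8 of them were higher, or 11.1%, and 4 lower, or 5.56%. Past 2-fold was 1, or 1.39%, against 0.872% of all genes. DNA replication genes, followed as a sign of cycling, had 9 of 24 higher and 2 lower, with a median of 0.05, and 2 were at least 1.2-fold higher. Of all measured genes 33.6% were higher and 29.5% lower, and 11.4% and 12.7% were so by at least 1.2-fold. The difference between these lists and the members was not tested.

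**Figure D5:**
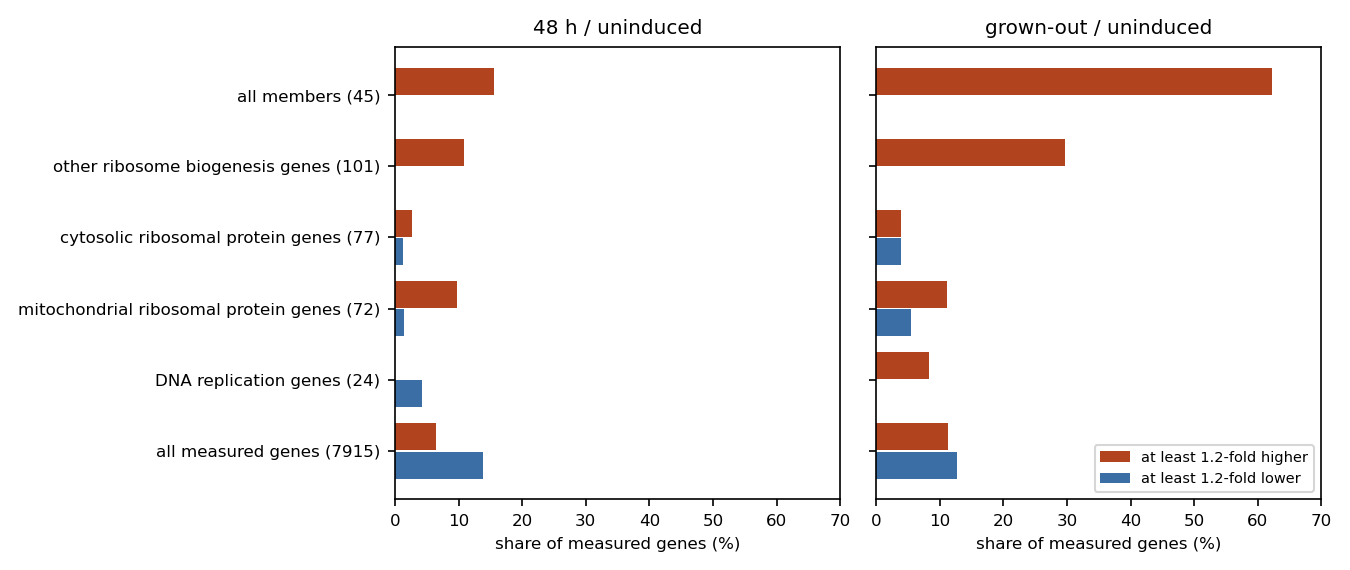
Share of measured genes at least 1.2-fold higher or lower beyond counting error, in percent, for the members, the other gene lists and all 7915 measured genes, with 1 panel for 48 h and 1 for grown-out cells, each against uninduced cells. In the grown-out panel the members' bar for higher genes reaches 62.2% and that for lower genes 0%, and all measured genes stand at 11.4% and 12.7%.

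Myc had 7.54 RPKM in uninduced cells, 6.25 after 48 h and 6.83 in grown-out cells. Nascent Myc RNA was thus lower in both doxycycline libraries. It was 1.10-fold lower in grown-out (1.03 to 1.18) and 1.21-fold lower in 48 h cells (1.13 to 1.29). Of the members, 35 (77.8%) were higher in grown-out and 17 (37.8%) in 48 h cells, against 33.6% and 30.1% of all measured genes. A link between Myc and the members was not tested. Nascent reads do not give the amount of MYC protein.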

How the data were processed

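Bru-seq gave 1 library per condition, and groups were taken from the labels. The authors deposited, per the file headers, an estimated count of reads for each whole gene model, introns included, and RPKM values scaled by model length and library total. Some deposited lengths were shorter than the span, and for these models the values may not cover the whole span. Tools were bedtools 2.16.2, TopHat 1.4.1, Bowtie 0.12.8 and CASAVA 1.8.2, per the submitters' processing notes, which also list hg19, a human build, although the gene symbols are those of mouse. Only 313 of 20130 models, and 0 members, start within 10 bp of the GRCm38.p6 gene table. Coordinates of gene models are as in the files, and their build is not given in the sources used here. Per the labels' protocols, strand-specific library preparation applied to certain samples, which are not named there.

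From these files a fold was computed as the ratio of RPKM values, and the log2 ratio after adding a pseudocount of 0.05 to the RPKM, so that ratios of weakly transcribed genes are understated. Of the estimated counts above 0, 47.3% to 48.5% were whole within 0.01 of a read, and all were rounded. From the rounded counts and the library totals came exact conditional binomial 95% intervals of folds and Poisson 95% intervals of levels. These cover counting error only, and no p-value was computed. Models with a repeated symbol or spanning over 3 Mb, 138 in all, were left out of the measured genes. Alternatives were the pseudocount, the minimum RPKM, the read minimum, the interval, scaling by edgeR 4.0.16 (TMM) or DESeq2 1.42.0 size factors, and leaving out members that overlap other models. Figures and intervals used Python 3.11.15 with scipy 1.17.1 and matplotlib 3.10.9.

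The members, lists and the rule for named genes were chosen with earlier results of these data known, and an earlier look had already shown higher values of many of these genes in grown-out cells. By that rule every member is named. Values in every library are given for the 16 members whose interval bound lies farthest from no change in grown-out against uninduced cells, for the first 6 in the other comparisons, and for members lower than in uninduced cells. Of the other pathway genes, up to 3 per list with the largest ratio past counting error are named. Values of Imp3, Pes1, Rrs1 and other members outside the rule were added after being seen. Promoters were matched by symbol.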

Additional observations from a re-analysis of the deposited data

Results flagged for a closer look

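Npm1 moved in opposite directions relative to uninduced cells. It was 1.35-fold higher in grown-out cells (1.33 to 1.38) and 1.12-fold lower in 48 h cells (1.10 to 1.14), which put grown-out cells 1.52-fold above 48 h cells. With 1 library per condition this difference was not tested against variation between cultures.

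Snora75 and Snord69 are snoRNA models counted apart from the genes that host them. Above, they entered only the comparison of the 10 snoRNA models inside members. Snora75, inside Ncl, was 1.58-fold higher in grown-out than in uninduced cells (1.13 to 2.20), at 17.8 against 11.3 RPKM. Snord69, inside Gnl3, was 2.33-fold higher in 48 h than in uninduced cells (1.11 to 5.70), at 8.10 against 3.48 RPKM and from 23.1 against 10.5 reads, while Gnl3 itself was 1.08-fold lower. Both stood out because they were higher than in uninduced cells by an interval that excluded no change, among 10 such models in each comparison. Others moved the other way: Snord70, inside Nop58, was 1.75-fold lower in 48 h than in uninduced cells (1.08 to 2.83), and Snord92, inside Wdr43, was 2.03-fold lower in grown-out than in 48 h cells (1.07 to 3.95).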

How the results depend on the processing

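No paired analysis was possible because there was 1 library per condition, and for the same reason no replicate could be left out. No called ratio or median changed direction under the alternatives run. A ratio near 1 that was not called could, as for Npm3 in grown-out against 48 h cells, which was 1.01-fold and became 0.996-fold when scaled to gene model reads. Of the recomputed ratios of single members, 662 stayed within the counting interval of the first value and 13 left it, mostly to smaller ratios with a pseudocount of 0.5, where Bop1 in grown-out against uninduced cells was 1.38-fold. Requiring a mean of at least 2 RPKM left 25 members, of which 19 were higher in grown-out and 11 in 48 h than in uninduced cells, and 15 in grown-out than in 48 h cells. With the wider confidence interval that was tried, 11 were higher and 1 lower in 48 h than in uninduced cells, and 1 was lower in grown-out than in 48 h cells. At least 1.2-fold, 7 were higher and 0 lower in 48 h than in uninduced cells, and 19 higher and 1 lower in grown-out than in 48 h cells. Leaving out members that overlap a model on the same strand left 1 lower in 48 h than in uninduced cells. With DESeq2 size factors 1 was lower in grown-out than in 48 h cells. Apart from the 1.2-fold rule, shares of all genes called under these alternatives are not given here. Those counts therefore cannot be set against a background. The median log2 ratio of all genes shifted by at most 0.04 under another scaling. Depth limited members with few reads, such as Npm3, Imp3 and Nop10, and no interval covers variation between cultures.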

Other observations

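Genes of the MYC network other than Myc differed in both directions. Mxi1, an antagonist of MYC, had 1.09 RPKM in uninduced cells, 0.834 after 48 h and 0.591 in grown-out cells, 1.84-fold lower in grown-out than in uninduced cells (1.74 to 1.96). Max, the partner of MYC, had 1.45, 1.69 and 1.93 RPKM and was 1.33-fold higher in grown-out than in uninduced cells (1.25 to 1.42). Counting Myc itself, 2 of 6 measured genes of this network, Max and Mxd1, were higher in grown-out than in uninduced cells beyond counting error, and 2, Mxi1 and Myc, were lower. Each count was 33.3%, near the 33.6% higher and 29.5% lower of all measured genes.

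Ccnd3, the cyclin D3 gene that overlaps Bysl by 358 bp on the other strand, had 0.183 RPKM in grown-out cells and 0.352 RPKM in uninduced cells. It was 1.92-fold lower (1.76 to 2.10), while Bysl was 1.37-fold higher. The mean of Ccnd3, 0.290 RPKM, lay under the minimum of 0.5 RPKM for measured genes. Taf1d, a subunit of the RNA polymerase I selectivity factor, was among the most transcribed of the other pathway genes, with 33.4 RPKM in uninduced, 28.8 in 48 h and 37.2 in grown-out cells. It was 1.16-fold lower in 48 h (1.13 to 1.18) and 1.11-fold higher in grown-out than in uninduced cells (1.09 to 1.14). Taf1d and Ccnd3 were chosen after their values were seen.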
